A study of Homo sapiens with 12 samples.

Results

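The subject here is the set of genomic regions in which the H3K27ac peak lists of CDK19 knockdown cells stood apart from all other lists of the series. Peaks of the 9 lists on chromosomes 1 to 22 were merged where they overlapped or touched, which gave 117312 regions. A list held a region if a peak of it lay there. A region was called gained if all 3 CDK19KD lists held it and none of the other 6 did, and lost if all 6 Control and CDK8KD lists held it and no CDK19KD list did. There were 288 gained regions (0.245% of all merged regions) and 120 lost regions (0.102%), 408 in all. Members were thus chosen by the presence and absence of deposited peaks in these same lists, so these counts and the peak values below describe the choice and carry no test.

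H3K27ac was mapped by ChIP-seq on unfixed (native) chromatin from MDA-MB231, a breast cancer cell line. Control cells received a lentivirus labelled EV-control, which the series' design text calls a control shRNA, CDK19KD cells a lentivirus with CDK19 shRNA and CDK8KD cells one with CDK8 shRNA. All were processed 96 h later. Each group had 3 libraries, and 3 Input samples were not analysed here. All groups share the lentiviral infection and the cell line. Whether replicates came from separate infections, how many shRNA sequences were used and how far each kinase fell are not given in the sources used here, so the spread between libraries may be technical.

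H3K27ac is acetylation of lysine 27 on histone H3, which marks active promoters and active enhancers. It is placed by the acetyltransferases p300 and CBP and removed by histone deacetylases. CDK19 and CDK8 are closely related kinases. Either can pair with cyclin C in the kinase module of Mediator, the complex that links transcription factors at enhancers with RNA polymerase II, and the module binds Mediator reversibly and regulates transcription at many enhancers.

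The 9 lists held 642127 peaks on these chromosomes, between 60958 and 85366 each, and covered 256 to 311 Mb. Control replicates 2 and 3 had the longest lists and alone held 12850 and 12615 regions, against 1482 to 4786 for each other library. The 3 CDK19KD lists covered 256 to 264 Mb, and the CDK8KD lists 285 to 311 Mb. Read depth is unknown, since peak lists carry no counts, and a library of lower depth or enrichment may lack a peak that another library shows. The part of list length and covered length in the counts of gained and lost regions was not tested. No pair of lists shared more than 4 peaks with identical start and end, so no list was a copy of another.

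Gained regions outnumbered lost ones by a ratio of 2.40. The lost rule asks for peaks in 6 lists and the gained rule in 3, so this ratio does not compare the directions. With the 20000 strongest peaks of each list there were 92 gained and 99 lost regions, none of which overlapped a member described here. Both sets were a small part of the map. Gained regions added up to 685 kb, or 0.134% of the 511 Mb in all merged regions, and lost regions to 0.0766%. The gained regions were 4.19% of the 6872 regions held by exactly 3 lists, and the lost regions 3.5% of the 3426 regions held by exactly 6. Counted in the same way, 285 regions (0.243% of all) were held by all CDK8KD lists and no other, and 113 (0.0963%) by all lists but those of CDK8KD. For Control the counts were 115 (0.098%) and 100 (0.0852%). The counts for CDK19KD thus lay close to those for CDK8KD, and a difference between them was not tested.

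Each peak carries a p-value from the authors' peak caller, deposited as −log10 p, a q-value (the p-value adjusted for the number of tests) as −log10 q, and a fold enrichment over background. Peaks were ranked by −log10 p within their own list, on a percentile scale where 100 is the strongest. Coordinates below are hg19, counted from 1. An hg19 genome and gene annotation were not used here, so neither genes nor sequences at the regions were analysed. The 10 gained and 10 lost regions with the highest mean percentile over the lists that held them are given first.

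The strongest gained region was chr6:10859106-10862946, 3841 bp wide. Its −log10 p was 5.37, 4.61 and 9.41 in CDK19KD replicates 1, 2 and 3, which put it at the 52.5th, 65.0th and 66.8th percentile of these lists. A stretch of 2063 bp was covered in all 3 libraries. The nearest peak of another library was 18826 bp away, in a region held by all 9 lists. The region is a site of CDK19KD peaks between neighbours that every library had.

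The second gained region, chr12:68828127-68831241, was strongest in CDK19KD replicate 3. The −log10 p was 5.01, 3.84 and 11.2 in replicates 1, 2 and 3, and the fold enrichment 2.87, 3.07 and 4.19. The nearest peak of another library was 1998 bp away. The third, chr17:44739182-44743566, had −log10 p of 6.94, 3.75 and 7.66 and lay 58027 bp from the nearest region of all 9 lists. Replicate 2 gave the lowest −log10 p at both.

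The fourth gained region, chr15:51294907-51297820, was the most even of the 10 by percentile. Its percentiles were 57.3, 58.7 and 57.5 in replicates 1, 2 and 3, and 2422 of its 2914 bp were covered in all 3. The seventh, chr11:68623970-68626829, had the longest such stretch of all gained regions, 2539 of 2860 bp, with −log10 p of 3.99, 4.85 and 6.07. In both regions the CDK19KD peaks of the 3 libraries lay over the same bases.

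Other strong members agreed less in extent. At chr2:183468444-183472116 the peaks of replicates 1 and 3 covered 93.9% and 83.1% of the region, and that of replicate 2 covered 9.39%. At chr2:196909845-196912154 the shares were 91.0%, 11.7% and 95.5% in replicates 1, 2 and 3, although −log10 p was similar (5.52, 4.74 and 4.96). At chr4:128282782-128284821 the shares were 100%, 15.6% and 34.6%. Replicate 2 thus had the narrowest peak in each of these 3 regions.

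The 9th and 10th gained regions were chr7:87861993-87865031 and chr4:153917564-153920391. At the former −log10 p was 3.86, 4.15 and 7.22 in replicates 1, 2 and 3, and a region of all 9 lists lay 2502 bp away. At the latter it was 4.19, 4.57 and 5.38, with such a region 9567 bp away. Both were covered over most of their width in each CDK19KD library, at least 75.7%.

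The strongest lost region was chr20:60009922-60013853, 3932 bp wide. Its −log10 p was 3.99, 2.76 and 6.13 in Control replicates 1, 2 and 3 and 4.12, 5.61 and 11.2 in CDK8KD replicates 1, 2 and 3. The nearest peak of a CDK19KD list lay 79581 bp away and the nearest region of all 9 lists 78239 bp away. The region thus lay far from CDK19KD peaks and from shared regions, although CDK8KD replicate 3 had another, weaker peak (−log10 p of 2.26) from 13693 to 14190 bp from its centre. All 6 libraries covered 1567 bp of it in common. CDK8KD replicate 3 gave the highest percentile, 81.6, and Control replicate 2 the lowest, 36.0.

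**Figure D1:**
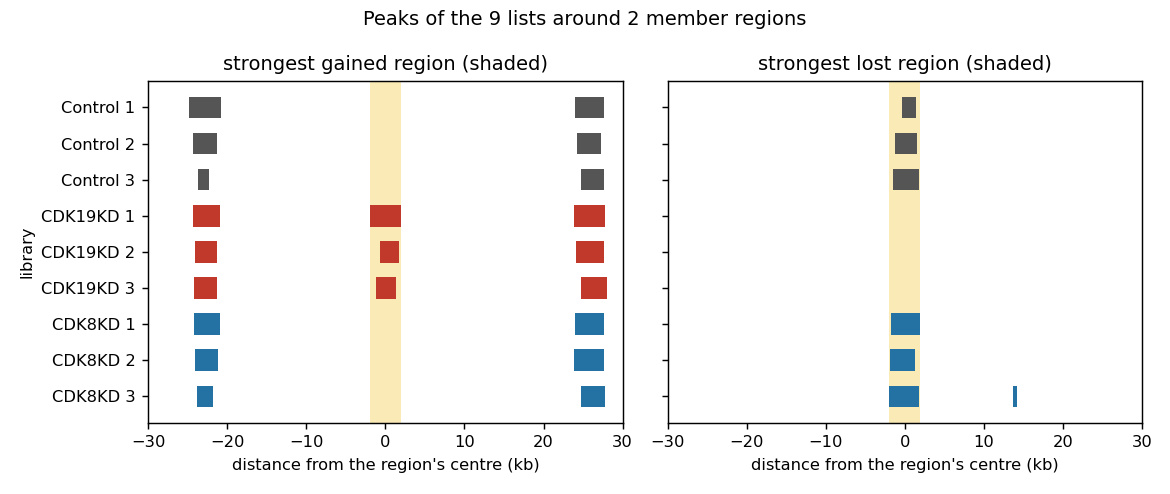
Peaks of each library (bars, 1 row per library) by distance in kb from the centre of the strongest gained region (left) and the strongest lost region (right), both shaded. On the left all 9 lists have peaks on either side and only the 3 CDK19KD lists have one in the shaded region, and on the right the 6 Control and CDK8KD lists have a peak where no CDK19KD list does.

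The second lost region, chr21:34407402-34411032, lay close to shared acetylation. Its −log10 p was 4.22, 5.65 and 3.27 in the Control replicates and 4.14, 5.01 and 5.57 in the CDK8KD replicates, and a region of all 9 lists was 1576 bp away. The third, chr1:1891558-1893883, had −log10 p of 5.11, 4.03 and 4.30 in Control and 3.10, 5.90 and 5.66 in CDK8KD. Control peaks covered 20.5% to 26.0% of this region, and CDK8KD peaks 40.2% to 91.7%. The ranges of cover at this region did not overlap between Control and CDK8KD.

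The fourth lost region, chr9:116111341-116112867, had −log10 p of 4.95, 3.57 and 3.12 in Control and 5.54, 5.89 and 2.97 in CDK8KD. The fifth, chr10:80458617-80462219, had 2.70, 3.78 and 3.69 in Control and 3.65, 4.88 and 4.5 in CDK8KD. The sixth, chr7:134288548-134292636, was the most even by percentile among the first 6, from 34.8 to 57.5 over the 6 lists, and 1851 bp of it were common to them. In all 3 the Control and CDK8KD ranges of −log10 p overlapped.

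The seventh, chr6:132108052-132113087, had a common stretch of 89 bp in 5036 bp, and the peaks of CDK8KD replicates 2 and 3 covered 5.36% and 7.05% of it. The eighth, chr3:149419786-149422210, leaned to Control, with percentiles of 53.7, 56.5 and 67.4 there and 34.1, 29.8 and 45.3 in CDK8KD. The ninth was chr8:143670959-143674667, with −log10 p of 3.07, 3.05 and 3.83 in Control and 3.32, 4.41 and 4.96 in CDK8KD. The 10th was chr14:75679146-75681852, led by Control replicate 1 with −log10 p of 6.24, against 2.77 to 4.76 in the other 5 lists. These regions differ in which library had the highest −log10 p. Percentiles rank peaks within 1 list only. The highest percentile fell in CDK8KD replicate 3 in 34 of the 120 lost regions, Control replicate 2 in 33 and CDK8KD replicate 1 in 3.

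Most member peaks were in the weaker part of their own list. In gained regions the median −log10 p of the strongest peak was 3.01, 2.83 and 3.66 in CDK19KD replicates 1, 2 and 3, where each list starts at 2.0 to 2.01. The median percentile was 27.0, 31.4 and 36.7. In lost regions the median −log10 p was 2.70, 2.80 and 2.79 in Control and 3.17, 2.85 and 3.33 in CDK8KD. The median percentile was 18.5, 37.7 and 32.1 in Control and 28.3, 34.4 and 41.1 in CDK8KD. The mean percentile of a region over its lists had a median of 30.6 in gained and 31.2 in lost regions, against 23.8 in all regions held by exactly 3 lists, 30.3 in those held by exactly 6 and 73.6 in those held by all 9. Over all 117312 merged regions this median was 30.2, so members were about as strong as merged regions in general and weaker than those that every library shared.

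Few members were strong in every list that held them. Of the 288 gained regions, 4 were above the list median in all 3 CDK19KD lists, and of the 120 lost regions, 0 were above it in all 6. A −log10 q of at least 1.30, a false discovery rate of 5%, was reached in all holding lists by 126 gained regions (43.8%) and 27 lost regions (22.5%). A −log10 q of at least 2 was reached in all holding lists by 17 gained and 0 lost regions. In at least 1 holding list it was reached by 217 gained (75.3%) and 95 lost regions (79.2%). Most members thus passed this level in some but not all of the lists that held them.

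**Figure D2:**
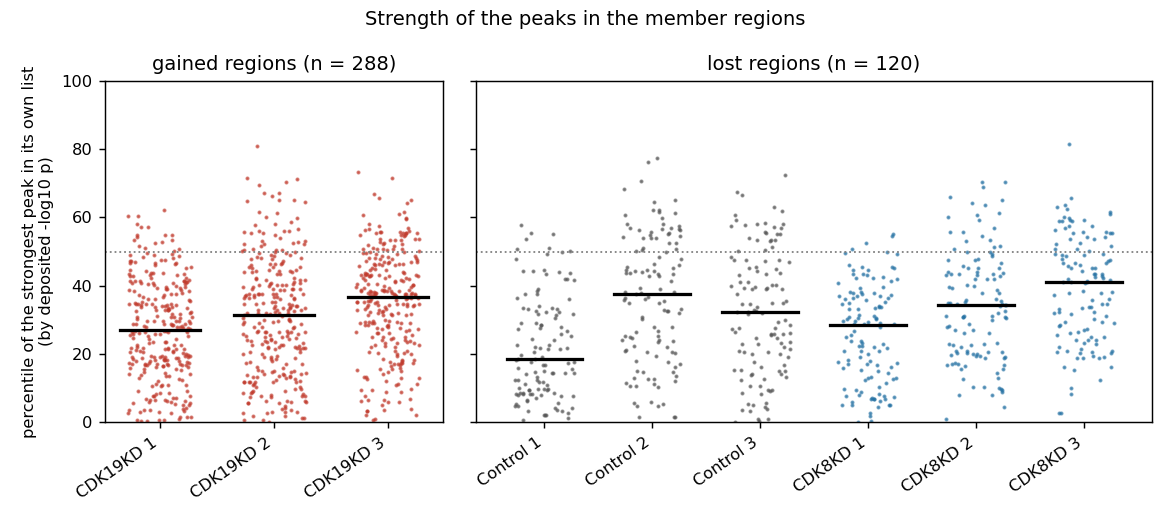
Percentile of the strongest peak of each member region within its own list (vertical axis, by deposited −log10 p), for each library that held the region (horizontal axis). Points are regions, black bars are medians, and the dotted line is the list median. Medians lie between 18.5 and 41.1, below the list median in every library.

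Strength agreed only loosely between libraries. Over the 288 gained regions, percentiles of pairs of CDK19KD lists correlated with Spearman's rho of 0.314 (replicates 1 and 2), 0.322 (1 and 3) and 0.189 (2 and 3). Over the 120 lost regions rho ran from 0.0371 to 0.364 among the 15 pairs of lists. These are descriptions across regions that were all chosen to be present in each of these lists. The highest percentile fell in CDK19KD replicate 3 in 142 gained regions, in replicate 2 in 98 and in replicate 1 in 48.

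Members were wider than the typical merged region and narrower than the regions every library shared. The median width was 2312 bp in gained regions (283 to 6214 bp) and 3016 bp in lost regions (1242 to 9504 bp). All merged regions had a median of 1933 bp, regions held by exactly 3 lists 2027 bp, those held by exactly 6 had 3196 bp, and those held by all 9 had 7640 bp. Member widths were thus near those of other regions held by as many lists. Regions held only by CDK8KD lists had a median of 2467 bp, and those held by all lists but CDK8KD 3393 bp.

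Peaks of the holding libraries met on common bases in most gained and most lost regions. This was counted over 3 libraries in gained and 6 in lost regions, a stricter demand, so the directions are not compared. In 267 of the 288 gained regions (92.7%) some stretch was covered in all 3 CDK19KD libraries, with a median length of 408 bp over all 288. In 65 of the 120 lost regions (54.2%) some stretch was covered in all 6 holding libraries, with a median length of 51 bp over all 120. In the other lost regions no base had a peak in all 6 libraries, and the region was a chain of partly overlapping peaks.

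Peaks of CDK19KD replicate 2 covered a median of 49.8% of a gained region, against 67.6% in replicate 1 and 77.2% in replicate 3. In lost regions the median cover was 44.5%, 43.2% and 35.2% in the Control replicates and 57.9%, 53.3% and 62.1% in the CDK8KD replicates. Every CDK8KD median was above every Control median.

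The 3 widest members of each direction follow, and the 3 lost ones were such chains of partly overlapping peaks. The widest gained region, chr6:77799446-77805659, spanned 6214 bp with 605 bp in common, and its cover was 94.1%, 32.9% and 27.4% in replicates 1, 2 and 3. The next, chr6:10353313-10358441, held the highest −log10 p of any gained region, 11.9 in CDK19KD replicate 3, beside 3.54 and 2.87 in replicates 1 and 2. The third, chr18:21584671-21589714, had −log10 p of 3.10, 2.91 and 4.32. The 3 widest lost regions, chr1:92770721-92780224, chr5:141869589-141877782 and chr2:203073151-203081054, were 9504, 8194 and 7904 bp wide. Each had 0 bp in common to its 6 libraries, with cover from 3.16% to 87.9% of the region.

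Around the centre of gained regions, peaks of CDK19KD replicates 1, 2 and 3 were present in 76.7%, 65.6% and 91.7% of the regions. At 10 kb on either side, CDK19KD peaks were present in 11.5% to 17.0% and peaks of the other libraries in 8.33% to 14.9%. Around lost regions the centre was covered in 59.2% to 66.7% in the Control libraries and in 68.3% to 82.5% in the CDK8KD libraries. At 10 kb on either side of them CDK19KD peaks were present in 14.2% to 21.7% and the others in 15.0% to 30%. The near sides are bare in part by construction, since a peak of a lacking list touching the region would have removed it.

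**Figure D3:**
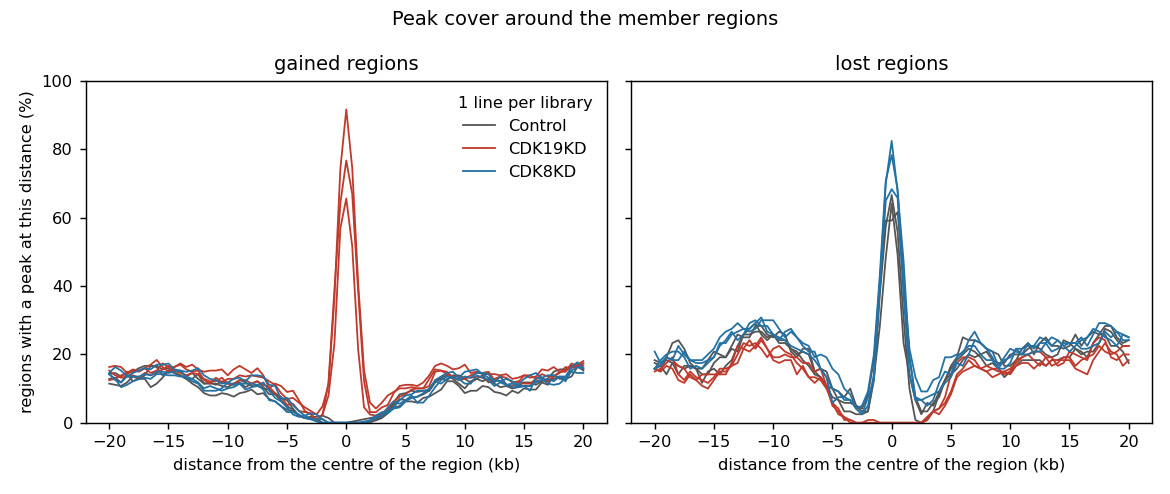
Share of gained (left) and lost (right) regions with a peak (vertical axis, %) at each distance from the centre of the region (horizontal axis, kb, in steps of 500 bp), 1 line per library. CDK19KD lines lie at 65.6% to 91.7% at the centre of gained regions, and at the centre of lost regions Control and CDK8KD lines lie at 59.2% to 82.5%.

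Farther out, the flanks of lost regions were less covered in CDK19KD than in the other libraries. Over 50 kb on each side of a lost region, peaks covered 15.9% ± 0.398 of the bases in CDK19KD libraries, 18.9% ± 1.37 in Control and 20.1% ± 0.870 in CDK8KD (mean ± SD, n = 3). No CDK19KD library (15.6% to 16.3%) reached the lowest of the others (17.4%). Divided by the share of chromosomes 1 to 22 covered in the same library, the values were 1.68 to 1.73 in CDK19KD, 1.74 to 1.89 in Control and 1.90 to 1.93 in CDK8KD. The gap to Control replicate 3, the lowest Control library, was small on this scale.

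Beside gained regions the flanks were covered by 13.0% ± 0.802 in CDK19KD, 12.0% ± 0.801 in Control and 12.4% ± 0.533 in CDK8KD (mean ± SD, n = 3), and the groups overlapped. Divided by the library's overall share they did not overlap, with 1.34 to 1.46 in CDK19KD, 1.03 to 1.28 in Control and 1.10 to 1.27 in CDK8KD. These flanks belong to the same contrast as the rule, so the values carry no test.

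Most members lay away from the shared map but not far from it. The median distance to a region of all 9 lists was 15022 bp for gained and 7720 bp for lost regions, against 9596 bp for regions held by exactly 3 lists and 12114 bp for those held by exactly 6. Within 10 kb of such a region lay 111 gained (38.5%) and 68 lost regions (56.7%), against 51.0% of regions held by exactly 3 lists and 45.3% of those held by exactly 6. Gained regions were thus farther from shared acetylation than other regions held by as many lists, and lost regions nearer, with no test of either difference.

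Few members had a peak of a lacking list within 1000 bp. Signal too weak to be listed cannot be seen here, and these gaps were not compared with those of other regions. A peak of a lacking list lay within 1000 bp of 18 gained regions (6.25%) and of 4 lost regions (3.33%). Within 10 kb such a peak was found for 177 gained (61.5%) and 91 lost regions (75.8%). The median gap was 6592 bp for gained and 5518 bp for lost regions.

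By number, gained regions were most frequent on chromosomes 4 (25), 2 (23) and 6 (21). Per 1000 merged regions of a chromosome, chromosome 13 had most (4.04, from 12 regions), followed by chromosomes 15 (3.63), 16 (3.46), 18 (3.30) and 4 (3.24). Chromosomes 19 (0.630, from 2 regions) and 21 (0.810, from 1) had few, and chromosome 22 had 0 among its 1760 merged regions. Lost regions were most frequent per 1000 on chromosomes 14 (2.32, from 9 regions), 15 (1.95, from 7) and 11 (1.86, from 10), and least on chromosome 17 (0.20, from 1). On chromosome 17 gained regions numbered 13 against 1 lost, while on chromosome 11 there were 10 of each. Numbers per chromosome are small, and no difference between chromosomes was tested.

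**Figure D4:**
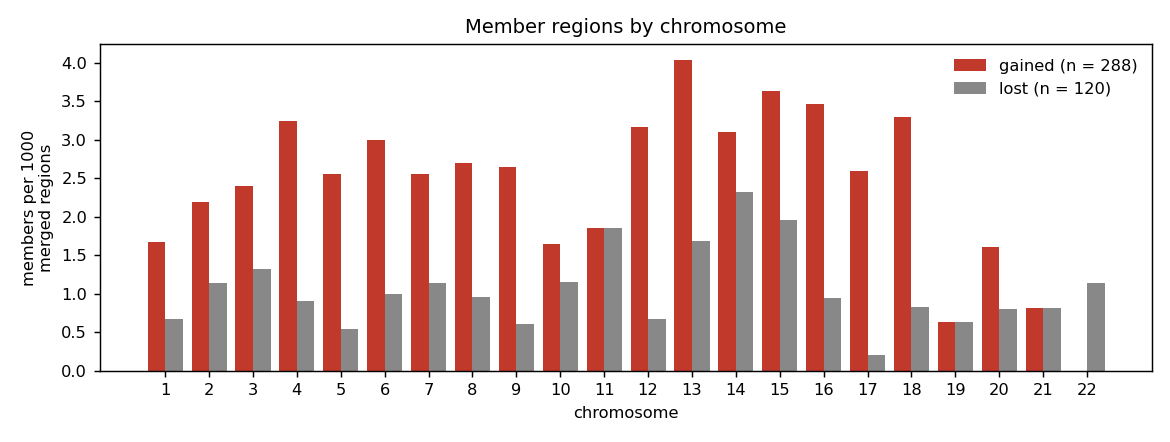
Gained (red) and lost (grey) regions per 1000 merged regions (vertical axis) on each chromosome (horizontal axis). Gained regions range from 0 on chromosome 22 to 4.04 on chromosome 13, and lost regions from 0.20 on chromosome 17 to 2.32 on chromosome 14.

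Most members had no member of the same direction within 100 kb, but this share was not computed for other regions held by as many lists. Whether members were grouped or scattered was not tested. With gaps of up to 100 kb allowed, 27 gained regions (9.38%) formed 12 runs, the largest of 3 regions, and 2 lost regions formed 1 run. The first run of 3 lay on chromosome 6, at 3376914-3379506, 3381350-3383504 and 3390119-3392817. Its −log10 p in CDK19KD replicates 1, 2 and 3 was 3.95, 2.91 and 4.27 in the first region, 2.49, 4.26 and 4.20 in the second and 3.70, 3.62 and 3.07 in the third. The nearest peak of another library was 19069 bp from the first of them and farther from the others.

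The second run lay on chromosome 3, at 125342619-125344583, 125365432-125367740 and 125368788-125371561, where replicate 3 gave the highest −log10 p in each region (4.31, 4.35 and 4.06). The third lay on chromosome 7, at 46464196-46466505, 46482612-46485296 and 46569184-46571251, with −log10 p between 2.32 and 3.56. The run of lost regions was chr7:42209608-42211422 and chr7:42227538-42230316. Their −log10 p in the 6 holding lists ran from 2.15 to 3.65 and from 2.16 to 4.28.

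The distances between gained and lost regions were not set against those of other regions, so they carry no test. The closest pair was 70964 bp apart on chromosome 18, the gained region 19521784-19523513 and the lost region 19594478-19596580. In neither was a base covered in all holding libraries. Within 10 kb of a lost region lay 0 of the 288 gained regions, and within 1 Mb 28 of them (9.72%).

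Many more regions missed the rules by 1 library. A further 465 regions were held by all 3 CDK19KD lists and by 1 of the other 6, with a median width of 2351 bp and a median mean percentile of 29.0. The 1 other list was Control replicate 2 in 119 of them and Control replicate 1 in 106, and in 52 to 71 of them each of the other 4 lists. Another 887 were held by 2 CDK19KD lists and no other, narrower (1474 bp) and weaker (22.1), and replicate 2 was the list that lacked the peak in 485 of them.

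On the lost side, 335 regions were held by all 6 other lists and by 1 CDK19KD list, which was replicate 1 in 153, replicate 3 in 106 and replicate 2 in 76. Their median width was 3470 bp and their median mean percentile 33.5. A further 314 were held by 5 of the 6 other lists and no CDK19KD list, most often without Control replicate 3 (92). Widths and percentiles just outside the rules were thus much like those just inside, apart from the regions held by only 2 CDK19KD lists.

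Since the rule does not use the difference between Control and CDK8KD, the lost regions were tested for it. The share of each region covered by peaks was compared in these 6 libraries with limma over all 108549 regions that had a mean share of at least 5%. After Benjamini-Hochberg adjustment 0 regions were called higher (0%) and 0 lower (0%), and none of the 120 lost regions was among the called. In simulated data with the spread of these libraries this test called none of the changed regions, even at the largest change tried, so the absence of calls does not show that cover was alike. At an unadjusted p under 0.05 there were 6002 regions (5.53%), of which 4936 were higher in CDK8KD (4.55%) and 1066 lower (0.982%). On log2 of the covered bp limma called 158 regions higher and 21 lower, and without Control replicate 3 it called 149 higher and 0 lower, with 0 lost regions among them in either case. With replicate number as a block limma called 2054 of the 108549 regions higher and 324 lower. Of the 120 lost regions 3 were among the higher, a share not tested against that of all regions. The numbers were not taken to pair the samples, but the 0 calls of the first fit depend on that choice. Within every group replicate 1 had the shortest peak list and replicate 2 the longest. A batch that follows replicate number was not tested. Among the lost regions 13 were higher and 2 lower at an unadjusted p under 0.05 in the first fit (12.5%), against 13.1% of the 34570 regions held by all 6 of these lists.

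Cover was higher in CDK8KD than in Control in 84 of the 120 lost regions (70.0%), with a median difference of 13.7 percentage points. Among all regions held by the same 6 lists it was higher in 60.1%, with a median of 4.30 percentage points, and among all 108549 regions tested in 42.5%, with a median of -7.93. The lost regions shared this direction with the other regions of that kind, and a difference between them was not tested. The median over all regions tested depended on the libraries used. It was 1.26 without Control replicate 2, -0.0730 without Control replicate 3 and -12.9 to -8.58 without any other single library. In the lost regions the median was 15.3, 9.27 and 11.1 to 14.6 in the same settings.

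The lost region with the smallest unadjusted p was chr3:14437425-14440602. Control peaks covered 14.4%, 22.8% and 13.8% of it in replicates 1, 2 and 3, and CDK8KD peaks 86.8%, 82.4% and 93.0%. The groups did not overlap, and the difference was 70.4 ± 20.6 percentage points (limma estimate ± SE, adjusted p = 0.267). No base of it was covered in all 6 libraries.

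Of the next 4, chr14:95896753-95898682 was covered by 51.1%, 13.0% and 70.8% in Control and 68.1%, 95.8% and 98.9% in CDK8KD, with overlapping ranges (42.6 ± 13.9 percentage points, limma adjusted p = 0.345). The strongest lost region, on chromosome 20, was also among them, at 65.2% ± 20.4 in Control and 90.3% ± 8.59 in CDK8KD (SD, n = 3, limma adjusted p = 0.521). At chr1:42037141-42044411 the −log10 p was 2.5, 2.63 and 2.78 in Control and 4.93, 4.8 and 6.2 in CDK8KD, and the cover 49.7% ± 16.1 and 83.2% ± 3.21 (SD, n = 3, limma adjusted p = 0.521). The last was chr13:111072252-111075396, at 40.3% ± 32.2 and 80.1% ± 11.5 (SD, n = 3, limma adjusted p = 0.521). In all 5 the mean cover was higher in CDK8KD than in Control, and none passed in this fit, which has no replicate term.

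**Figure D5:**
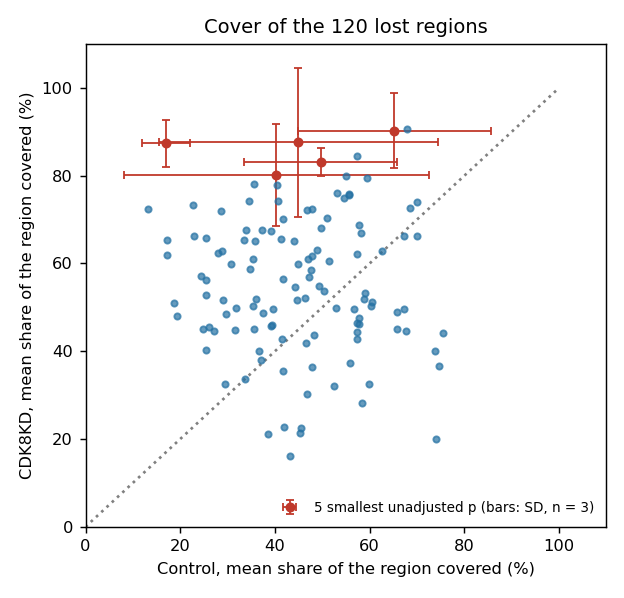
Mean share of each of the 120 lost regions covered by peaks in Control (horizontal axis, %) and in CDK8KD (vertical axis, %), 3 libraries each. The dotted line marks equal cover, 84 regions lie above it, and red points with SD bars are the 5 regions with the smallest unadjusted p.

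The counts of members depended on how a peak was counted as present. With only peaks of −log10 q of at least 2, there were 169 gained and 61 lost regions, which overlapped 17 of the 288 gained and 0 of the 120 lost members. With presence set at 50% of a region covered, there were 359 gained and 203 lost regions, which overlapped 78 gained and 2 lost members.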

How the data were processed

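H3K27ac was measured in 9 libraries, 3 each of Control, CDK19KD and CDK8KD, grouped by sample title. The submitters' processing notes name MACS2, deepTools and hg19, without roles or versions. The authors deposited a separate broad peak list for each library, with no pooling of replicates apparent from the lists. Column 7 is read as fold enrichment (a linear ratio) from the deposited layout, and columns 8 and 9 as the −log10 of the p-value and q-value. A deposited score, about 10 times the −log10 q, was not used. Aligner, caller settings and depth are not given in the sources used here, so no interval from counts was computed.

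Regions, percentiles and distances were computed with Python 3.11.15 and pandas 2.3.3 on chromosomes 1 to 22. Presence needed an overlap of 1 bp. Cover was tested with limma 3.58.1 (lmFit and eBayes with a trend, Benjamini-Hochberg adjusted p under 0.05) in Control and CDK8KD only, because the rule fixes CDK19KD at 0 in lost regions. The fit was tested on simulated data, with upward changes in regions of low mean cover and low spread. It recovered the size of these changes, but called none at the spread of these libraries, and called changes once that spread was reduced.

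Members and lists were chosen with earlier results of these data known. Named regions are the 10 strongest and 3 widest of each direction, the largest runs, the closest pair and the 5 lost regions with the smallest p. Planned steps needing hg19 sequence or annotation were not run.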

Additional observations from a re-analysis of the deposited data

Results flagged for a closer look

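Chromosome X was outside the rule that chose the members. Under the same rule it held 15 gained regions among 3051 merged regions (0.492%) and 3 lost regions (0.0983%), against 0.245% and 0.102% on chromosomes 1 to 22. These 15 were singled out as signal in data that the comparisons did not use, with no peak of a Control or CDK8KD list by construction. The difference from the other chromosomes was not tested. The gained region chrX:37341320-37344915 had −log10 p of 4.74, 3.84 and 4.65 in CDK19KD replicates 1, 2 and 3 and was chosen here after its values were seen.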

How the results depend on the processing

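Counts of gained and lost regions moved with the peaks that entered. They were 40 and 12 with a −log10 q of at least 5, 169 and 61 with at least 2, 92 and 99 with the 20000 strongest peaks of each list, and 191 and 90 with the 40000 strongest. With 50% of a region covered they were 359 and 203. Merging within 1000 bp, peaks of at least 500 bp and chromosome X kept both counts within 1.5 times, but with peaks of at least 500 bp the new regions overlapped 182 of the 288 gained and 53 of the 120 lost members. With the 20000 strongest peaks they overlapped 0 of either, and with the 40000 strongest 16 and 0. Leaving out 1 library loosens the rule, and gave 343 to 777 gained and 153 to 274 lost regions. Gained regions moved by over 1.5 times without CDK19KD replicates 1 (555), 2 (777) and 3 (459). Lost regions did so without CDK19KD replicates 1 (274), 2 (198) and 3 (226), Control replicate 3 (210) and CDK8KD replicate 1 (183). The cause of other changes was not tested.

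For cover in CDK8KD against Control, limma called 0 regions higher and 0 lower. With the replicate number as a block it called 2054 of 108549 regions higher and 324 lower. Of the 120 lost regions 3 were among the higher, a share not tested against that of all regions. These were chr3:14437425-14440602 (limma adjusted p = 0.00194), chr14:95896753-95898682 (0.00804) and chr13:111072252-111075396 (0.04996). Same-numbered libraries deviated together with correlations of 0.201, 0.0444 and 0.182, and pairs of unlike number with -0.209 to 0.0647. The former were not all above 0.1, and Control replicate 2 correlated best with CDK8KD replicate 1 (0.0647). By these correlations the numbers were not taken to pair the samples, but the 0 calls of the main fit depend on that choice. List length did follow replicate number within every group. Replicate 1 was shortest, with 63776 (Control), 64121 (CDK19KD) and 60958 (CDK8KD) peaks. Replicate 2 was longest, with 85366, 72826 and 72828. Replicate 2 also had its group's lowest share of peaks with −log10 q of at least 2 (44.8%, 50.4% and 52.8%). Whether replicate number marks a batch was not tested. On log2(covered bp + 100) 158 were higher and 21 lower, 0 lost regions among them. Without 1 library 0 to 149 were higher and 0 lower, most without Control replicate 3 (149), then Control replicates 2 (17) and 1 (4). For the 5 lost regions with the smallest p, 42 estimates under other settings kept their direction with an adjusted p above 0.05, and 3 fell under it, all with the block. Unknown depth limits every statement of absence.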
